A study of Mus musculus with 8 samples.

Results

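Ribosome biogenesis and RNA polymerase I were followed here through 38 genes, chosen as a list of named factors that copy ribosomal DNA, modify and cut the ribosomal RNA precursor, or fold it with ribosomal proteins in the nucleolus. All 38 had probe sets on the array, all 38 passed the filter on dim probe sets, and they were read among 12520 genes tested. The samples were splenic CD8 T cells of C57BL/6 mice, placed for 18 h with dendritic cells made from bone marrow, which were then removed, and 8 RNA samples were read on 1-colour Affymetrix arrays, 1 array each. There were 4 groups of 2 arrays. WT N4 cells were wild type and met dendritic cells carrying the ovalbumin peptide N4. PKCθ KO N4 cells, which lack the kinase PKCθ of T cell receptor signalling, met the same peptide. So did p50 cRel DKO N4 cells, which lack both of these NF-kB subunits. WT non-pulsed cells were wild type and met dendritic cells with no added peptide. The labels do not give the knockout alleles, the antigen receptor of the T cells, the age of the mice, or whether both arrays of any group trace to different animals, so p-values measure only the spread between these arrays, which may be technical. No knockout culture without peptide was analysed here.

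A ribosome starts in the nucleolus, where RNA polymerase I copies the ribosomal DNA repeats into a long precursor RNA. Small nucleolar ribonucleoproteins (snoRNPs) guide ribose methylation (box C/D type) and pseudouridylation (box H/ACA type) of that precursor, and assembly factors then cut, fold and export the small and large subunits. Lymphocytes that leave the resting state enlarge their nucleoli and make ribosomes ahead of division, and the transcription factor Myc, which binds the E-box CACGTG with its partner Max, is known to drive many of these genes.

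The promoters were read for that reason. RefSeq promoters of build GRCm38.p6, 250 bases before to 50 bases after each gene's start, were found for 33 of the 38 genes. The E-box CACGTG, which reads the same on both strands, lay in the promoters of 6 of these 33 genes (18.2%), namely Mybbp1a, Nop2, Pes1, Rrn3, Tsr1 and Wdr43, against 11.4% of the 10144 tested genes with a promoter and 8.09% of all 27025 genes in the table. The ETS core CCGGAAG, searched on both strands, lay in those of 12 of the 33 genes (36.4%), against 19.4% of tested genes and 9.93% of all genes. It was in 48.7% of the 39 promoters of cytosolic ribosomal protein genes, which did not rise as a list. The NRF1 motif, searched on both strands as well, was found in 0 of the 33, against 2.3% of tested genes. A match is a run of letters and not a measured binding site, and these motifs were chosen with the array results known. Rrn3 is shown because its window held an E-box pair, and Nop2 because both motifs lay within 100 bases upstream of its start. Nolc1 is shown because it had the largest rise with peptide by the brightest probe set of each gene. Polr1b had the second largest by that measure, with neither motif in its window. Capitals mark E-boxes and ETS cores (CCGGAAG or its reverse complement). The sequences run 5′ to 3′ on the plus strand, at chr16:13780449-13780698, chr6:125131783-125131882, chr19:46075747-46075846 and chr2:129100896-129100995 of GRCm38.p6.
Rrn3 promoter: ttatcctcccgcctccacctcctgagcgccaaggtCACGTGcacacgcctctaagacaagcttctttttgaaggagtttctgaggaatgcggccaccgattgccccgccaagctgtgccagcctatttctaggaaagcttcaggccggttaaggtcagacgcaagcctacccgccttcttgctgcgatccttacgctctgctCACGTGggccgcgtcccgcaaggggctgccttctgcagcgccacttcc
Nop2 promoter: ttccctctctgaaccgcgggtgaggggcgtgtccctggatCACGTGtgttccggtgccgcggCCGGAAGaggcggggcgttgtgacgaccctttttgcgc
Nolc1 promoter: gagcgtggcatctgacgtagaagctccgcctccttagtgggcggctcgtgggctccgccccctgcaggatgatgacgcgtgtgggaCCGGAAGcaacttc
Polr1b promoter: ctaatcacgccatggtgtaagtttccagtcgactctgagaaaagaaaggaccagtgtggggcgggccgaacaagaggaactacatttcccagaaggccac
Counted from the start, with -1 the last base before it, the E-boxes of Rrn3 begin at -215 and -48. In Nop2 the E-box begins at -60 and the ETS core at -38, and the ETS core of Nolc1 begins at -14. Rrn3 also has ETS cores beginning at -5 and 19, which run past the stretch printed.

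The knockout labels were checked on their genes. The cRel gene Rel was at levels of 6.19 and 5.92 in p50 cRel DKO N4 samples, against 8.97 to 10.09 in the other 6. The PKCθ gene Prkcq was at 11.003 and 10.751 in PKCθ KO N4 samples, against 11.30 to 11.90 in the other 6, so its transcript was still well measured there. The labels do not say which exons were deleted, so it is unknown whether these probe sets lie inside them. The gene for p50 was not analysed here. All 8 arrays had a 2% trimmed mean of 500, and the 3′ to 5′ signal ratio lay between 0.778 and 0.861 for the Gapdh controls and between 1.031 and 1.197 for actin. Xist, transcribed from the inactive X chromosome, ranged over 12.27 to 12.57 in knockout samples. It was 5.18 and 6.65 in WT N4 samples, and in WT non-pulsed samples 6.05 and, for replicate 2, 11.84. The Y-linked gene Eif2s3y was at 5.42 to 6.72 in knockout samples, against 10.65 to 11.20 in wild-type ones, so genotype and sex-linked transcripts cannot be told apart. T cell markers were present in every group (Cd8a between 11.15 and 13.29). B cell markers were present in the non-pulsed cultures, where the summed signal of 12 of them was 40135 and 58044, against 836 and 3301 in WT N4 cultures. Of 14 dendritic cell and macrophage markers the summed signal was 2379 and 5671 in WT N4 cultures and 52756 and 67056 in non-pulsed ones. In such bulk RNA, fewer cells of a type and less RNA per cell cannot be told apart.

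RNA of wild-type cultures with N4 peptide held more transcript of most of the 38 genes than RNA of wild-type cultures without it. Levels are log2(signal + 16), and differences are differences of that level. Of the 38 genes 33 rose, 0 fell and 5 did not pass at a limma adjusted p under 0.05 (Benjamini-Hochberg, with every gene tested in the adjustment). In the same comparison 17.2% of all genes tested rose and 23.5% fell, 40.7% in all. The median difference of the 38 genes was 0.88, or 1.85-fold, with a range of 0.05 to 1.49, while the median of all genes was -0.10. At least a 2-fold rise was called for 13 of the 38 genes, against 6.44% of all genes. For 36 of the 38 both WT N4 arrays lay above both WT non-pulsed arrays, which held for 29.3% of all genes.

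Limits of that count come from single arrays and from the mix of cells. It was 19 without WT N4 replicate 1 and 22 without WT non-pulsed replicate 2, the array with high Xist, and 0 fell in either case. The summed signal of the 38 genes was 227191 and 253697 in WT N4 cultures, against 137220 and 162794 in WT non-pulsed cultures. Alongside, all 12 B cell markers and 12 of 14 dendritic cell and macrophage markers fell (median differences -4.34 and -3.82), all 6 neutrophil markers fell, and 5 of 10 T cell markers rose (median difference 0.45). Their part in the rise of the 38 genes was not tested.

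**Figure D1:**
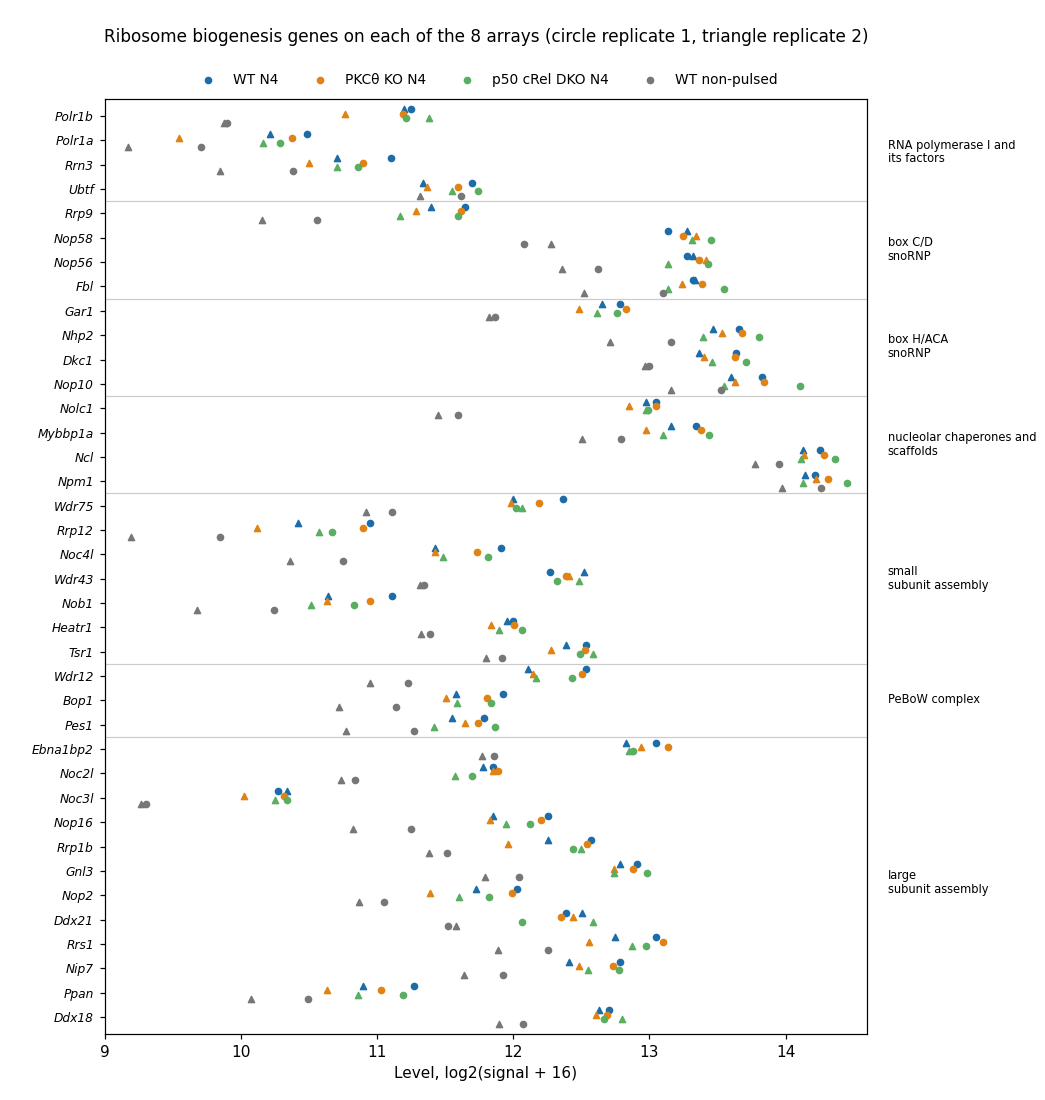
Level of each of the 38 genes, log2(signal + 16), on every array, grouped by role; circles are replicate 1 and triangles replicate 2 of WT N4, PKCθ KO N4, p50 cRel DKO N4 and WT non-pulsed cells. For 35 of the 38 genes all 6 arrays of N4 cultures lie above both WT non-pulsed arrays; the exceptions are Polr1a, Ubtf and Npm1.

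RNA polymerase I itself was represented by 4 genes, of which 3 rose. Polr1b, the second largest subunit of the enzyme, read 11.25 and 11.20 in WT N4 cells, 11.19 and 10.77 in PKCθ KO N4 cells, 11.21 and 11.38 in p50 cRel DKO N4 cells, and 9.90 and 9.88 in WT non-pulsed cells. The 6 N4 arrays all lay above both non-pulsed arrays, and WT N4 exceeded WT non-pulsed by 1.34 (SE 0.17, limma adjusted p = 0.0004). Polr1a, the largest subunit, read 10.49 and 10.21 in WT N4 cells, 10.37 and 9.54 in PKCθ KO N4 cells, 10.29 and 10.17 in p50 cRel DKO N4 cells, and 9.71 and 9.17 in WT non-pulsed cells. One PKCθ KO array lay below the higher non-pulsed array. The WT N4 difference was 0.91 (SE 0.28, limma adjusted p = 0.0317). Rrn3, the factor that brings the polymerase to the ribosomal DNA promoter, rose by 0.79 (SE 0.23, limma adjusted p = 0.0241), with 11.10 and 10.71 in WT N4 cells against 10.39 and 9.85 in WT non-pulsed cells. Ubtf, which binds along the ribosomal DNA and keeps it open, stood apart from these. Its levels were 11.70 and 11.34 in WT N4 cells, 11.59 and 11.37 in PKCθ KO N4 cells, 11.74 and 11.55 in p50 cRel DKO N4 cells, and 11.62 and 11.31 in WT non-pulsed cells. The groups overlapped, and its WT N4 difference by the brightest probe set was 0.05. The 95% interval of that probe set, from -0.35 to 0.46, leaves out a rise as large as that of Polr1b. That interval, like all those below, is not adjusted for the number of genes. A dimmer Ubtf probe set read 7.90 and 9.14 in WT N4 cells against 7.41 and 8.71 in WT non-pulsed cells. It differed by 0.46 without passing (limma adjusted p = 0.692 over all probe sets kept).

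Most box C/D snoRNPs guide ribose methylation of ribosomal RNA, and of 4 genes for their proteins 3 rose. Of these, Rrp9 belongs to a particle that guides cuts instead. Nop58, one of the paired core proteins, read 13.14 and 13.28 in WT N4 cells, 13.25 and 13.35 in PKCθ KO N4 cells, 13.45 and 13.31 in p50 cRel DKO N4 cells, and 12.08 and 12.27 in WT non-pulsed cells. All N4 arrays were about a doubling above the non-pulsed ones (WT N4 difference 1.03, SE 0.13, limma adjusted p = 0.000367). Its partner Nop56 rose by 0.80 (SE 0.14), with levels of 13.28 and 13.32 in WT N4 cells against 12.62 and 12.36 in WT non-pulsed cells. Rrp9, which binds the snoRNA that guides the first cuts of the precursor, rose by 1.17 (SE 0.21). Fbl, fibrillarin, the methyltransferase itself, read 13.32 and 13.33 in WT N4 cells against 13.10 and 12.52 in WT non-pulsed cells. These groups did not overlap, and the difference of 0.51 (SE 0.20) did not pass (limma adjusted p = 0.0766).

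Of the 4 genes for box H/ACA proteins, which carry pseudouridylation, 3 rose (median difference of the 4, 0.57). Gar1 read 12.78 and 12.65 in WT N4 cells, 12.82 and 12.48 in PKCθ KO N4 cells, 12.76 and 12.61 in p50 cRel DKO N4 cells, and 11.87 and 11.82 in WT non-pulsed cells. By brightest probe set it had the largest difference of the 4 (0.87, SE 0.14, limma adjusted p = 0.00167). Nhp2 rose by 0.63 (SE 0.19), and Dkc1, the pseudouridine synthase dyskerin and the only one of the 38 genes on the X chromosome, by 0.52 (SE 0.15, limma adjusted p = 0.0211). Dimmer probe sets rose by more, 1.13 and 0.90 for Dkc1 and 1.06 for Nhp2. Nop10, the smallest protein of the complex, read 13.83 and 13.60 in WT N4 cells against 13.53 and 13.16 in WT non-pulsed cells. Its groups did not overlap and its difference of 0.37 did not pass (limma adjusted p = 0.185).

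Among the abundant nucleolar chaperones and scaffolds the genes parted ways. Nolc1, a chaperone of snoRNPs that also binds RNA polymerase I, read 13.05 and 12.97 in WT N4 cells, 13.05 and 12.85 in PKCθ KO N4 cells, 12.99 and 12.98 in p50 cRel DKO N4 cells, and 11.60 and 11.45 in WT non-pulsed cells. Its difference of 1.49 (SE 0.12, 2.80-fold, limma adjusted p = 6.31e-05) was the largest of the 38 by brightest probe set. Dimmer probe sets of Nolc1 gave 1.72 and 0.78, those of Rrp1b 1.65 and 1.51, and that of Ddx21 1.58. Mybbp1a rose by 0.60 (SE 0.18). Ncl, nucleolin, which binds the precursor RNA, read 14.25 and 14.13 in WT N4 cells against 13.95 and 13.78 in WT non-pulsed cells, which differed by 0.33 and did not pass (limma adjusted p = 0.0772). Npm1, nucleophosmin, read 14.22 and 14.14 in WT N4 cells, 14.31 and 14.22 in PKCθ KO N4 cells, 14.45 and 14.13 in p50 cRel DKO N4 cells, and 14.26 and 13.98 in WT non-pulsed cells. The groups overlapped, and the WT N4 difference was 0.06, with a 95% interval from -0.27 to 0.39.

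The small subunit assembly factors rose in 7 of 7 cases (median difference 1.07). Wdr43, Wdr75 and Heatr1 belong to the complex that joins the precursor while it is still being copied. Wdr43 read 12.27 and 12.52 in WT N4 cells, 12.39 and 12.41 in PKCθ KO N4 cells, 12.32 and 12.48 in p50 cRel DKO N4 cells, and 11.34 and 11.32 in WT non-pulsed cells (WT N4 difference 1.07, SE 0.13, limma adjusted p = 0.000385). Wdr75 read 12.369 and 11.996 in WT N4 cells against 11.11 and 10.92 in WT non-pulsed cells (difference 1.17, SE 0.16). All N4 arrays of both genes lay above all non-pulsed ones. Noc4l read 11.91 and 11.43 in WT N4 cells against 10.75 and 10.36 in WT non-pulsed cells (difference 1.11, SE 0.22). Rrp12 (1.16), Heatr1 (0.62) and Tsr1 (0.60), the last of which stays on the late small subunit precursor, also rose. Nob1, the endonuclease that makes the final cut of the small subunit RNA, rose by 0.91 (SE 0.24, limma adjusted p = 0.0166).

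Transcripts of the large subunit factors rose in 12 of 12 cases (median difference 0.92). So did those of all 3 proteins of the PeBoW complex, which is needed to cut the spacer in front of the large subunit RNA. Within PeBoW, Wdr12 rose most (1.23, SE 0.20), followed by Bop1 (0.82) and Pes1 (0.65, limma adjusted p = 0.0367). Wdr12 read 12.54 and 12.11 in WT N4 cells, 12.51 and 12.15 in PKCθ KO N4 cells, 12.43 and 12.17 in p50 cRel DKO N4 cells, and 11.23 and 10.95 in WT non-pulsed cells. Every N4 array of Wdr12 was well above both non-pulsed arrays. Ebna1bp2, an early large subunit scaffold, read 13.05 and 12.83 in WT N4 cells, 13.13 and 12.94 in PKCθ KO N4 cells, 12.88 and 12.85 in p50 cRel DKO N4 cells, and 11.86 and 11.77 in WT non-pulsed cells (WT N4 difference 1.12, SE 0.13, limma adjusted p = 0.000277). Noc2l and Noc3l, which move with the precursor through the nucleus, differed by 1.03 and 1.02. Noc2l read 11.85 and 11.78 in WT N4 cells against 10.84 and 10.73 in WT non-pulsed cells, and Noc3l read 10.28 and 10.34 against 9.30 and 9.27 in the same order of groups. Neither gene's groups overlapped. The remaining 9 factors were Nop16 (1.02), Rrp1b (0.96), the GTPase nucleostemin Gnl3 (0.93), the RNA methyltransferase Nop2 (0.92), the RNA helicases Ddx21 (0.89) and Ddx18 (0.68), Rrs1 (0.83), Nip7 (0.81) and Ppan (0.80).

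Most of the 5 genes that did not pass were also the brightest. By mean level over the 8 arrays Npm1, Ncl and Nop10 ranked 1 to 3 of 38, and Fbl ranked 6, while Ubtf was in the middle of the list at rank 26. The highest level of any probe set on an array lay between 14.45 and 14.82, close to the 14.25 that Ncl reached in WT N4 cells. Dimmer probe sets of the same genes gave other values. Ncl had probe sets at mean levels of 13.34, 12.07 and 10.33 that rose by 1.22, 0.80 and 1.16 (limma adjusted p = 0.000525, 0.00748 and 0.00387 over all probe sets kept), against 0.33 for its brightest, and a further probe set near the filter differed by 0.56 without passing. Fbl had a probe set at 13.04 that rose by 0.85 (limma adjusted p = 0.00291). Those of Npm1 (0.33) and Nop10 (0.43) did not pass. In all, 28 of the 38 genes had 39 further probe sets above the filter. Of the 24 brighter than the median gene (a level of 9.11), 24 had a positive difference, 21 rose, and 20 had a larger difference than the brightest probe set of their gene. Of the 15 dimmer ones 8 differences were positive and 7 negative, and 0 passed either way. Whether the top of the scale compresses these differences was not tested.

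**Figure D2:**
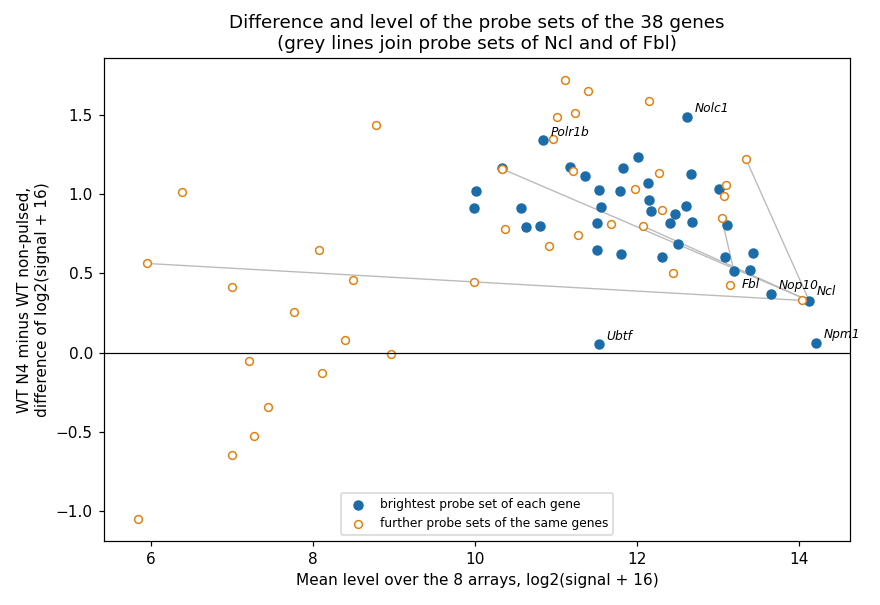
WT N4 minus WT non-pulsed difference against mean level, both on the log2(signal + 16) scale, for the brightest probe set of each of the 38 genes (filled) and for their 39 further probe sets above the filter (open). The 3 dimmer Ncl probe sets between levels of 10 and 14 lie at differences of 0.80 to 1.22, above the 0.33 of the brightest.

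In cells without PKCθ these transcripts lay near their wild-type N4 levels. Against WT N4 cells 0 of the 38 genes passed in PKCθ KO N4 cells (limma), and 0 had an unadjusted p under 0.05. Of all 12520 genes 0.024% passed, and 371 had an unadjusted p under 0.05. Those that passed were Eif2s3y, Kdm5d and Uty, all Y-linked, so Prkcq did not pass. The differences of the 38 genes ran from -0.39 to 0.10 with a median of -0.05, while that of all genes was -0.02. For 37 of the 38 the 95% interval lay within a 2-fold change either way, against 73.1% of all genes. That margin is wider than the median rise with peptide of 0.88, so lying within it does not show that the rise was kept in full. The 38 genes were also brighter (median level 12.14, against 9.11 for all genes), and the variance in the fit followed the level. Outside the margin lay Polr1a, whose difference of -0.39 had an interval from -1.04 to 0.26 (limma adjusted p = 1.00). Leaving out PKCθ KO replicate 2, which read 9.54, turned that difference to 0.02. The next largest differences were those of Ppan (-0.25, interval -0.76 to 0.26), at 11.03 and 10.63 in PKCθ KO N4 cells against 11.27 and 10.90 in WT N4 cells, and Polr1b (-0.25, interval -0.63 to 0.13), and neither passed. Without PKCθ KO replicate 2 these were -0.055 for Ppan and -0.038 for Polr1b. Leaving out PKCθ KO replicate 1 instead, the array with the higher reading, made the differences of Polr1a, Ppan and Polr1b larger in size. Of Polr1a, Ppan and Polr1b, only Polr1b had groups that did not overlap. Groups apart and lower held for 1 of the 38 genes, against 14.3% of all genes, and apart and higher for 3, against 11.5%. T cell markers differed by a median of 0.25 in this comparison and B cell markers by 0.65, with 0 passing in either list.

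In cells without p50 and cRel the list also lay near its wild-type N4 levels. Against WT N4 cells 0 of the 38 genes passed in p50 cRel DKO N4 cells (limma), and 0 had an unadjusted p under 0.05. Of all 12520 genes 0.519% passed, and 788 had an unadjusted p under 0.05. Differences of the 38 genes lay between -0.20 and 0.17 with a median of -0.01. For 38 of 38 the 95% interval lay within a 2-fold change, against 70.9% of all genes. The limits of that margin given above hold here too. The 3 largest differences were those of Nob1 (-0.20, interval -0.76 to 0.36), Noc2l (-0.18, interval -0.47 to 0.10) and Nop58 (0.17, interval -0.12 to 0.46). Nob1 read 10.83 and 10.52 in p50 cRel DKO N4 cells against 11.11 and 10.64 in WT N4 cells, and without WT N4 replicate 1 its difference was 0.04. Noc2l read 11.69 and 11.57 in p50 cRel DKO N4 cells, both below the WT N4 arrays. It was the 1 gene of the 38 with groups apart and lower, and Nop58 the 1 with groups apart and higher, each against 15.3% of all genes. Of 10 T cell markers 1 fell in this comparison, the adhesion molecule Cd2, with 11.02 and 10.76 in p50 cRel DKO N4 cells against 11.90 and 11.85 in WT N4 cells (difference -0.98, limma adjusted p = 0.0206). The medians were 0.22 for T cell markers, 0.45 for B cell markers and -0.52 for dendritic cell and macrophage markers, of which 7 of 14 had groups apart and lower, and 0 passed in the B cell and dendritic cell lists.

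Between the knockouts 0 of the 38 genes passed as well, with 0.431% of all genes passing (limma). An unadjusted p under 0.05 held for 0 of the 38 genes, against 897 of all 12520 genes. The p50 cRel DKO minus PKCθ KO differences ran from -0.24 to 0.32. For 38 of 38 the 95% interval lay within a 2-fold change, against 69.6% of all genes, with the same limits of that margin. Polr1b differed by 0.32 (interval -0.06 to 0.70), Polr1a by 0.27 (interval -0.38 to 0.92) and Noc2l by -0.24 (interval -0.53 to 0.05), all with limma adjusted p of 0.795 or more. Without PKCθ KO replicate 2 the Polr1b value was 0.11, and the Polr1a value turned to -0.15. Without PKCθ KO replicate 1 instead, both values were larger than with both arrays.

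**Figure D3:**
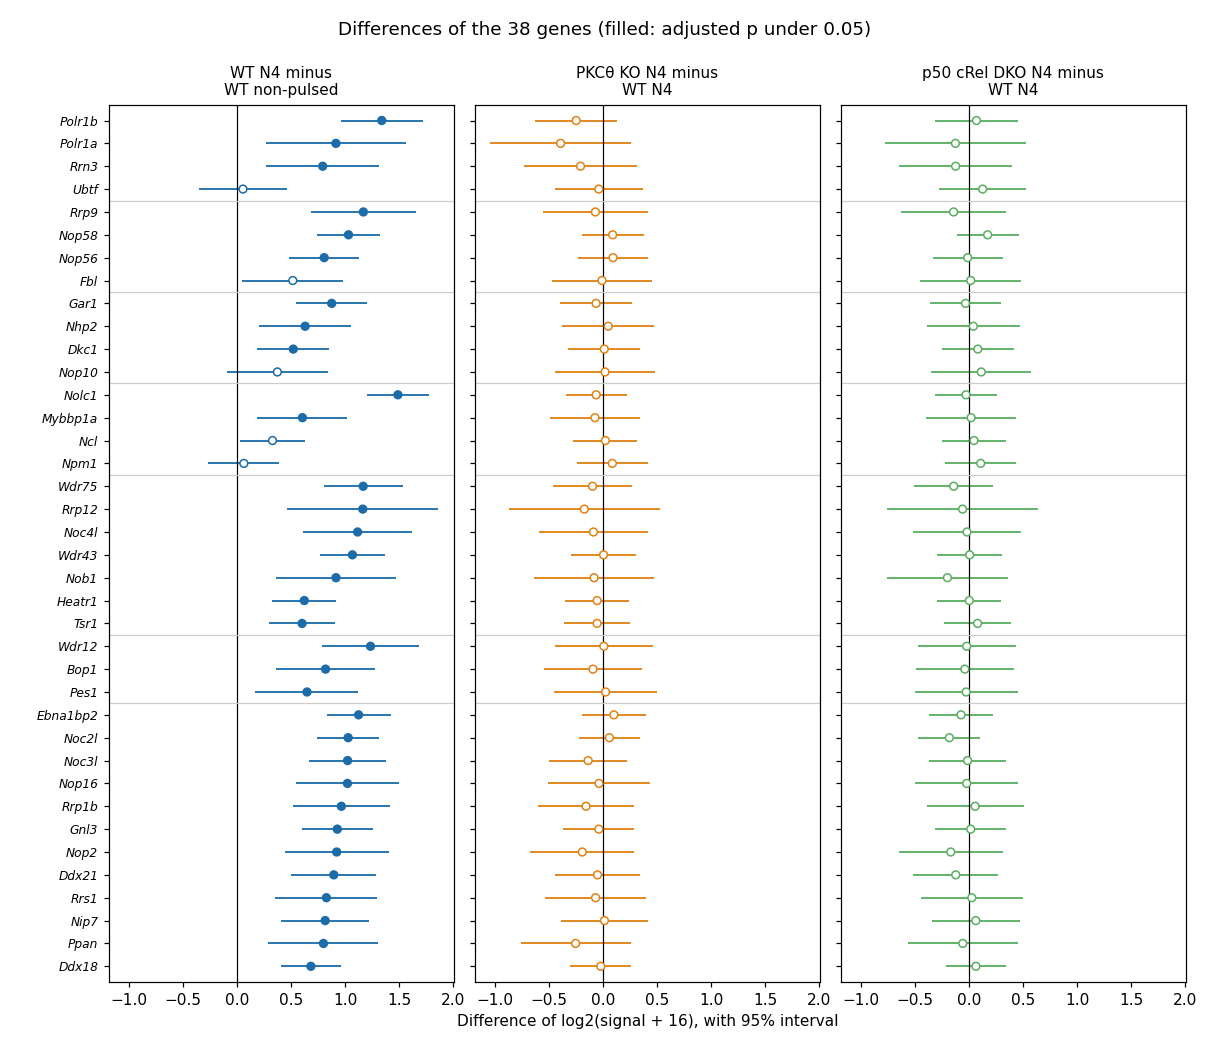
Differences of log2(signal + 16) with unadjusted 95% intervals for the 38 genes, for WT N4 minus WT non-pulsed, PKCθ KO N4 minus WT N4 and p50 cRel DKO N4 minus WT N4; filled points have a limma adjusted p under 0.05. Of the points 33 are filled in the first panel and 0 in the other panels, where the differences run from -0.39 to 0.17.

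Set against the WT non-pulsed cells, both knockouts showed the rise themselves. These comparisons share the non-pulsed arrays with the wild-type one, and genotype and peptide differ together in them. In PKCθ KO N4 cells 30 of the 38 genes rose and 0 fell, where 16.5% of all genes rose and 24.0% fell. The median difference was 0.81, and 10 genes rose at least 2-fold, against 5.89% of all genes. The count of 30 was 18 without PKCθ KO replicate 1 and 19 without WT non-pulsed replicate 2. In p50 cRel DKO N4 cells 33 rose and 0 fell, where 16.5% of all genes rose and 22.8% fell. The median difference was 0.79, and 12 genes rose at least 2-fold, against 6.09% of all genes. The count of 33 was 21 without p50 cRel DKO replicate 1 and 22 without WT non-pulsed replicate 2. Nolc1 differed from WT non-pulsed cells by 1.42 in PKCθ KO N4, 1.46 in p50 cRel DKO N4 and 1.49 in WT N4 cells, and Polr1b by 1.09, 1.41 and 1.34 in those groups. Rrn3 differed by 0.58 (limma adjusted p = 0.0755) in PKCθ KO N4 cells and by 0.67 (limma adjusted p = 0.0479) in p50 cRel DKO N4 cells. Ppan differed by 0.54 (limma adjusted p = 0.085) and 0.74 (limma adjusted p = 0.0284), and Polr1a by 0.52 (limma adjusted p = 0.183) and 0.79 (limma adjusted p = 0.056) in the same groups. For none of these genes did the test between the knockouts pass. All 3 N4 groups were called higher for 30 of the 38 genes, against 13.5% of all genes. The 6 N4 arrays all lay above both non-pulsed arrays for 35 of them, against 22.5% of all genes.

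Many genes of the pathway outside the list also rose in the wild-type comparison. Of 110 measured assembly, modification and RNA polymerase I genes in lists made for this purpose, 76 rose and 0 fell with N4, with a median difference of 0.71, where 17.2% of all genes rose and 23.5% fell. Among 43 further small subunit factors 33 rose, with Wdr36 (1.30), Nol11 (1.10), Nop14 (1.09) and Utp6 (1.16) at the lowest p. Among 44 further large subunit factors 29 rose, with Rbm28 (1.18), the helicase Ddx27 (1.11), the RNA methyltransferase Rrp8 (1.12) and Zfp593 (0.95) at the lowest p. Of 11 further snoRNP and modification genes 10 rose, including the ATPases Ruvbl1 (1.06) and Ruvbl2 (1.34), which assemble snoRNPs, and Naf1 (1.27), which assembles box H/ACA particles. Of 13 genes of the RNA exosome and its helpers, which trims the precursor, 9 rose, with the nuclease Dis3 at the lowest p (1.30, SE 0.12, limma adjusted p = 8.22e-05).

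Other RNA polymerase I genes were more mixed. Of 12 measured, 4 rose and 0 fell, with a median difference of 0.30. Taf1d, a subunit of the factor that selects the ribosomal DNA promoter, read 11.20 and 11.29 in WT N4 cells against 9.98 and 10.03 in WT non-pulsed cells, so that it rose by 1.24 (limma adjusted p = 0.000271, SE 0.14). Polr1c, a subunit shared with RNA polymerase III, rose by 0.71, Polr1e by 0.62 and Cd3eap, now named Polr1g, by 0.68. The groups of Taf1d lay far apart compared with the spread inside each.

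The ribosomal proteins themselves, which the assembled RNA must meet, did not share the rise. Of 43 measured cytosolic ribosomal protein genes 1 rose (Rpl14, 0.80, limma adjusted p = 0.00206), 0 fell and 42 did not pass, with a median difference of -0.09, near the -0.10 of all genes. Their summed signal was 643567 and 679726 in WT N4 cells against 624838 and 793354 in WT non-pulsed cells, so the groups overlapped. Their median level was 14.18, above the 12.14 of the 38 biogenesis genes and near the top of the arrays, where the probe sets of Ncl and Fbl gave smaller differences than dimmer ones. Whether this holds down their differences was not tested.

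**Figure D4:**
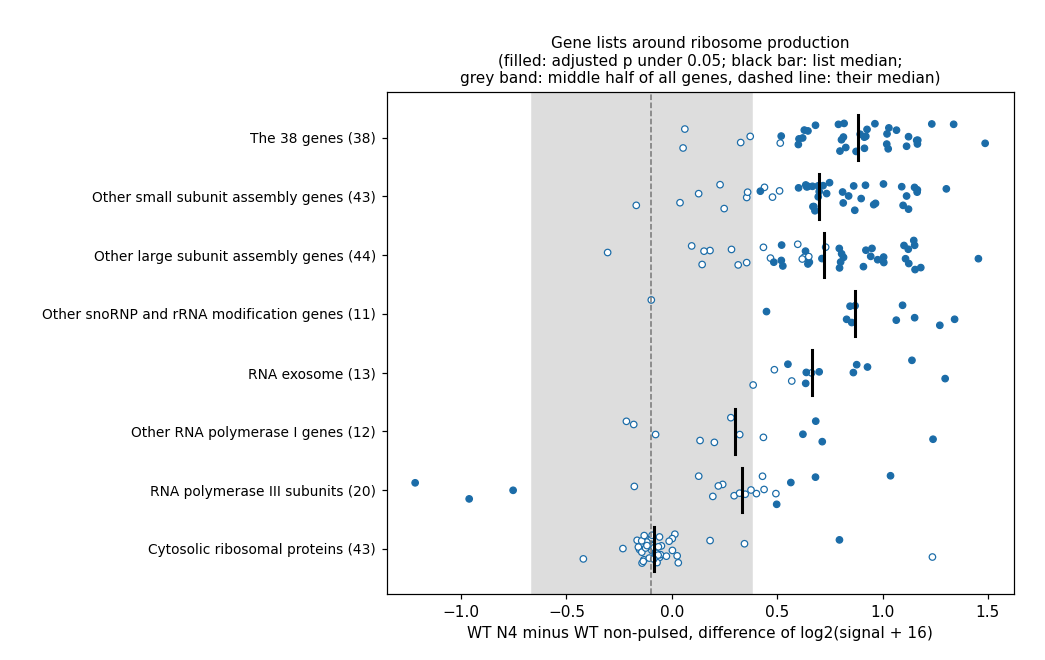
WT N4 minus WT non-pulsed difference of log2(signal + 16) for the 38 genes and for other gene lists around ribosome production, with the number measured in brackets; filled points have a limma adjusted p under 0.05, black bars are list medians, the grey band spans the interquartile range of all 12520 genes and the dashed line is their median. The median is 0.88 for the 38 genes and -0.09 for the 43 cytosolic ribosomal protein genes.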

How the data were processed

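The authors deposited 1 intensity value per probe set and array (linear, not log). The submitters' processing notes name GCOS 1.4 and MAS5, and the 2% trimmed mean was 500 on every array. Detection calls were not used here. Of 45101 probe sets 64 controls were left out, and names came from the platform annotation with symbols updated through RefSeq (GRCm38.p6). All tests used log2(signal + 16). Probe sets with a mean under the 40th percentile (a level of 5.38) were left out, which kept 27022, and the brightest probe set of each gene was used (12520 genes). The 4 group means were fitted together over 8 arrays in limma 3.58.1 under R 4.3.3, leaving 4 residual degrees of freedom, with eBayes allowing the variance to follow the level. The fit was tested on simulated data. Adjusted p-values are Benjamini-Hochberg over all genes, with 0.05 as the threshold. The number of arrays limits the precision. The 38 genes, the other lists, the motifs and the tests were chosen with earlier results of these data known. Named were all 38 genes for the peptide comparison, the 3 largest differences between N4 groups, and up to 4 genes of each other list by lowest p. Taken from titles, an array without a number was replicate 1. Alternatives covered scaling, pseudocount, filters, probe sets, trend, replicate number, arrays left out and groups fitted; their effect is given at the end.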

Additional observations from a re-analysis of the deposited data

How the results depend on the processing

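In WT N4 against WT non-pulsed the 33 calls became 33 after quantile normalization, 29 after median centring, 30 with probe sets averaged, 28 without the variance trend and 36 with the replicate number as a block, and 19 to 33 when 1 array was left out. All of these were rises, and 17 genes passed under every alternative run. The scaling moved the median difference of all genes from -0.10 to 0.09 (quantile) and 0.30 (median centring), and the share of all calls that were higher from 42.3% to 52.6% and 61.1%. The median of the 38 genes was 1.28 after median centring and 0.67 to 1.01 with 1 array left out; relative to all genes it was 0.98 as deposited, 0.72 with quantiles and 0.98 with medians. Against WT non-pulsed the PKCθ KO median was 0.67 with quantiles, 1.22 with median centring and 0.62 to 0.95 with 1 array left out (18 to 31 calls); the p50 cRel DKO median was 1.18 with median centring and 0.66 to 0.97 with 1 array left out (21 to 34 calls). With 1 array left out the median for PKCθ KO against WT N4 ran from -0.17 to 0.072, that for p50 cRel DKO against WT N4 from -0.11 to 0.10, and that between the knockouts from -0.074 to 0.16. None of the 38 genes passed in these 3 comparisons under any alternative run. Signs turned in the peptide comparison for Ubtf (-0.059 with quantiles, -0.12 to 0.23 with 1 array left out) and Npm1 (-0.079 to 0.20 with 1 array left out). With 1 array left out they also turned for Polr1a between PKCθ KO and WT N4 (-0.81 to 0.022) and between the knockouts (-0.15 to 0.68), and for Nob1 between p50 cRel DKO and WT N4 (-0.44 to 0.038). The cause was not tested.

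Calls over all genes moved more. For PKCθ KO against WT N4 the 3 calls became 0 with quantiles, 1 with a pseudocount of 1, 1 with no filter, 0 without the trend and 0 to 3 with 1 array left out. For p50 cRel DKO against WT N4 the 65 became 36 with median centring, 35 without the trend, 200 with the replicate block and 13 to 35 with 1 array left out. Between the knockouts the 54 became 28 with no filter, 17 without the trend, 152 with the replicate block, 98 with only these groups fitted and 0 to 34 with 1 array left out. For p50 cRel DKO against WT non-pulsed the 4917 became 3229 to 3746 with 1 array left out. Replicate numbers are not stated to mark a shared batch. Deviations of same-numbered arrays from their group means correlated at 0.25 to 0.58 across genes, and the block changed no count of the 38 genes by over 1.5 times.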

Other observations

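RNA polymerase III makes the transfer RNAs and the smallest ribosomal RNA. Of 20 measured genes of this polymerase 4 rose, 3 fell and 13 did not pass with peptide in wild-type cells (median difference 0.33), near the background of 17.2% of all genes higher and 23.5% lower. The subunit Polr3k read 12.30 and 12.05 in WT N4 cells against 11.18 and 11.09 in WT non-pulsed cells and rose by 1.04 (SE 0.14, limma adjusted p = 0.000664). Maf1, the repressor of this polymerase, read 10.56 and 10.73 in WT N4 cells against 11.80 and 11.93 in WT non-pulsed cells and fell by 1.22 on the log2 scale (SE 0.14, limma adjusted p = 0.000302). Polr3gl (-0.96) and the initiation factor subunit Brf1 (-0.75) fell too. Of 8 RNA polymerase II subunits 2 rose, Polr2c (0.78) and Polr2b (0.44). Against WT N4 cells, 0 of these genes passed in either knockout.

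Of 10 genes of the Myc network 1 rose, 3 fell and 6 did not pass (median difference -0.05), also near that background. Myc read 12.86 and 12.94 in WT N4 cells, 13.05 and 12.69 in PKCθ KO N4 cells, 12.93 and 12.73 in p50 cRel DKO N4 cells, and 12.22 and 12.15 in WT non-pulsed cells (WT N4 difference 0.72, SE 0.15, limma adjusted p = 0.00504). Mxd4, which competes with Myc for Max, read 5.59 and 4.77 in WT N4 cells against 9.37 and 9.83 in WT non-pulsed cells. Its WT N4 values lie around the filter level of 5.38, and it passed the filter through the non-pulsed group, so no size is given for its fall. Mnt (-0.72) and Mxd1 (-0.79) fell as well. The non-pulsed cultures also held the B cell and dendritic cell transcripts given above, and their part in the fall of Mxd4 was not tested.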
